A study of Mus musculus with 6 samples.

Results

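The genes described here make small nucleolar RNAs (snoRNAs) or their spliced host transcripts. They were chosen by symbol from the RefSeq genes of the mouse mm10 build: all symbols that begin with Snora, Snord or Snhg and a number, without the repeated Snord115 and Snord116 copies, of which 17 were left out. This gave 134 of the 49943 genes on chromosomes 1 to 19, X and Y, namely 77 box C/D snoRNA genes (Snord), 39 box H/ACA snoRNA genes (Snora) and 18 small nucleolar RNA host genes (Snhg). Of the 116 snoRNA genes, 113 lay wholly inside another annotated gene, taken as the host, and 82 different genes served as hosts. Snord13, Snord89 and Snord118 had no host.

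Binding of WDR5 and the histone mark H3K4me3 were mapped by chromatin immunoprecipitation and sequencing (ChIP-seq) in mouse embryonic stem cells. All cells carried an Rx:GFP knock-in, were grown in 2i+LIF and were double knockout for Wdr5 and p53, so the comparison line lacked p53 too. One line was rescued with WDR5WT, here the WT rescue, and the other with WDR5S91KY191F, here the mutant rescue, which carries the substitutions S91K and Y191F. Each line gave 1 library per antibody, and the labels state neither how many clones a line stands for nor how much rescue protein it makes, so nothing shows how far repeats of either line would differ, and no p-value is given.

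Most vertebrate snoRNAs are cut out of introns of longer transcripts and have no promoter of their own. Box C/D snoRNAs guide 2′-O-methylation and box H/ACA snoRNAs guide pseudouridylation of ribosomal and spliceosomal RNA. Many hosts encode ribosomal proteins or translation factors, and Snhg genes and Gas5 are hosts whose spliced RNA has little or no coding capacity. WDR5 is a scaffold subunit of the complexes that methylate lysine 4 of histone H3, and H3K4me3 marks many promoters.

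A gene was counted as having a peak when a deposited peak lay within 1 kb of either gene end. The deposited WDR5 lists held 11095 peaks in the WT rescue against 26888 in the mutant rescue, and only 10.8% and 4.83% of them had a −log10 q of at least 2. The H3K4me3 lists held 71695 and 74305 peaks. Of 12 genes that mark naive embryonic stem cells, 11 had an H3K4me3 peak in each line, and Esrrb had none in either. Of 10 fibroblast (feeder cell) markers, 6 had one in the WT rescue against 3 in the mutant rescue. Col3a1, Postn, Lum and Dcn had none in either line, and the part of the other fibroblast markers in the results below was not tested.

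WDR5 peaks lay at 44 of the 134 genes in the WT rescue (32.8%, exact 95% interval 25.0 to 41.5, which covers counting error only), at 26 in the mutant rescue (19.4%, 13.1 to 27.1) and at 20 in both (14.9%, 9.36 to 22.1). Over all RefSeq genes these shares were 9.51%, 8.01% and 2.67%. Counting peaks past a −log10 q of 2 left 17, 15 and 13 genes, beside 1.47%, 1.69% and 0.589% of all genes. Neighbouring snoRNAs share peaks, so these counts came from 41 different peaks in the WT rescue against 22 in the mutant rescue. Of the 41, 38 overlapped an H3K4me3 peak of the same line, as did 20 of the 22, beside 86.7% and 56.1% of all WDR5 peaks within 1 kb of a gene end. None of the 41 or the 22 lay within 200 bp of a transfer RNA gene.

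The shares with a WDR5 peak past a −log10 q of 2 overlapped between the 3 kinds of gene: in the WT rescue the exact intervals were 3.58 to 41.4% for Snhg, 4.59 to 19.4% for box C/D and 5.86 to 30.5% for box H/ACA. Among the Snhg genes, 11 of 18 had a WDR5 peak in the WT rescue against 5 in the mutant rescue, and 3 passed a −log10 q of 2 in each line. Among the box C/D genes 19 and 13 of 77 had one, and 8 and 7 passed. Among the box H/ACA genes 14 and 8 of 39 had one, and 6 and 5 passed. The remaining 1208 genes of the snoRNA biotype, which are outside the symbol rule, had a peak in 3.31% and 3.56% of cases.

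The peaks at snoRNA genes were almost all peaks of the host gene's end. Of 33 snoRNA genes with a WDR5 peak in the WT rescue, 30 had one that also lay within 1 kb of a host end, and in the mutant rescue this held for 19 of 21. In the WT rescue 3 snoRNA genes had a peak inside the host and more than 1 kb from its ends. These were Snord58b in Rpl17, Snora19 in Eif3a and Snord110 in Nop56, and Snord58b and Snord110 were the 2 such genes in the mutant rescue. Snord118, which codes for the U8 RNA and has no host, lay under a WT rescue peak of fold 2.09 and −log10 q 0, and had none in the mutant rescue. A WDR5 peak covered some base of the snoRNA gene itself at 13 snoRNA genes in the WT rescue against 9 in the mutant rescue.

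The nearer a snoRNA lay to the host's start, the more often the host's peak came within its window. The 1 kb window and the choice of hosts with a peak at an end largely build this in, so it describes the counting rule. In hosts that had a WDR5 peak in either line and a start site in the promoter table, 15 of 16 snoRNA genes within 1000 bp of the start had a peak within 1 kb. This was 11 of 15 between 1000 and 2000 bp, 2 of 23 between 2000 and 5000 bp, and 0 of 16 farther away. Snord37 shows this: it lies 2330 bp into Eef2, whose WDR5 peak had the highest WT rescue fold of any host, and counted as having no peak. Snord111, 8205 bp into Sf3b3, and Snord66, 11529 bp into Eif4g1, also counted as having none although both hosts had strong peaks.

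**Figure D1:**
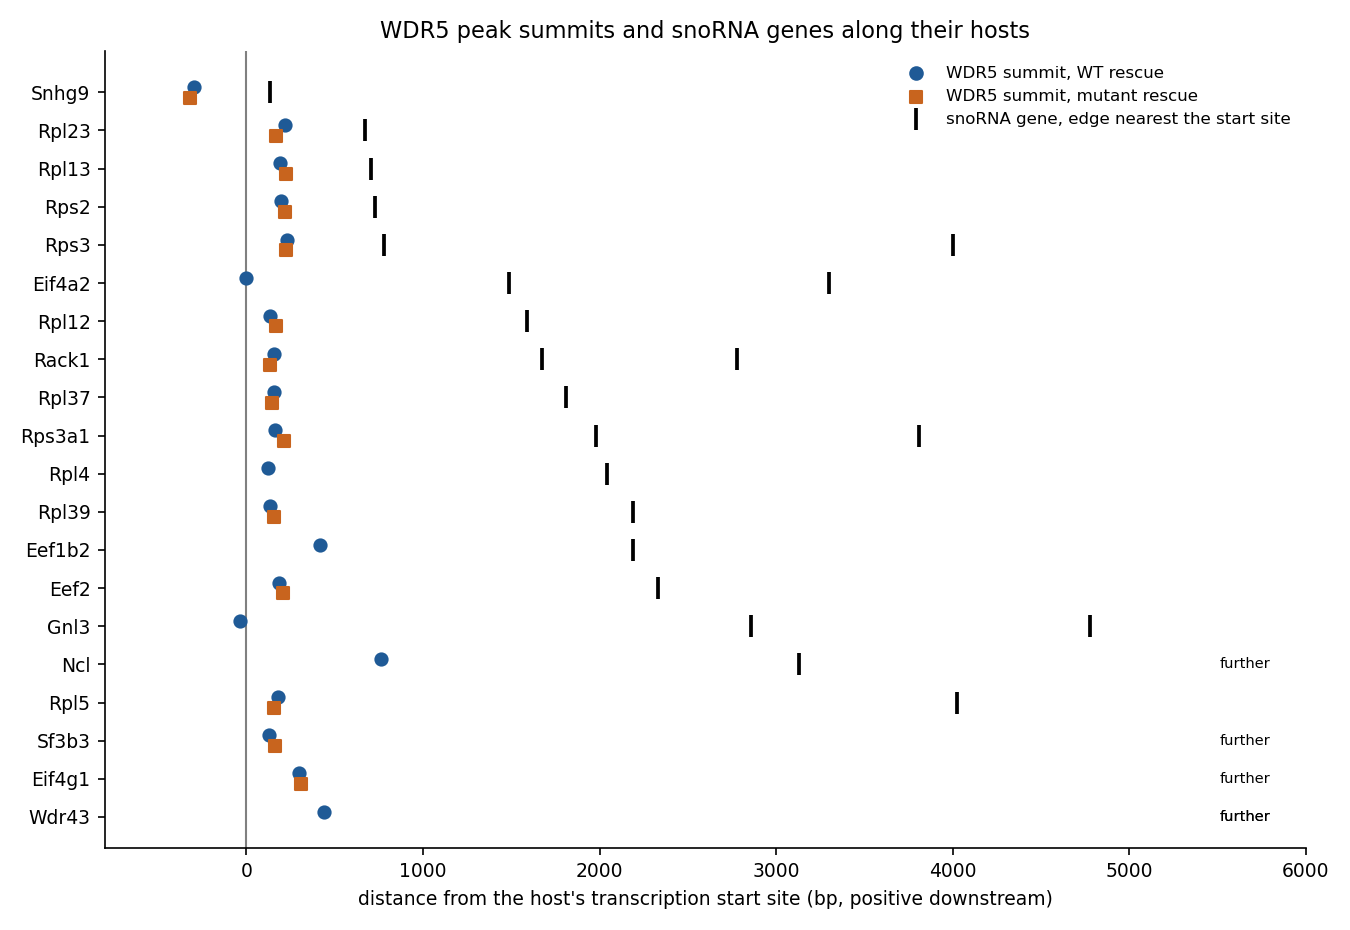
Summits of WDR5 peaks with a −log10 q of at least 2 (circles WT rescue, squares mutant rescue) and the edge of each snoRNA gene nearest the host's start site (bars), in bp downstream of that site, 1 host per line. Most summits sit just downstream of the start whatever the place of the snoRNA; "further" stands for snoRNAs beyond the axis, and at Snhg9 the peak shown is shared with the neighbouring Rps2.

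Host genes were therefore described by their own ends. WDR5 peaks lay at 52 of the 82 hosts in the WT rescue (63.4%, 52.0 to 73.8), at 33 in the mutant rescue (40.2%, 29.6 to 51.7) and at 28 in both (34.1%, 24.0 to 45.4). Over 21887 protein-coding genes the shares were 16.3%, 10.7% and 4.33%, and over the 14575 of these that had an H3K4me3 peak in both lines 23.9%, 14.0% and 6.45%. Past a −log10 q of 2 there were 24, 18 and 17 hosts, beside 3.47%, 2.47% and 1.21% of those 14575 genes. The median fold of the highest peak per host was 3.09 over the 52 hosts in the WT list and 5.34 over the 33 in the mutant list. Over protein-coding genes with a peak it was 2.73 and 2.55. These medians cover different sets of genes in each list, and folds rank peaks only within a list, so they do not compare binding between the lines.

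Cytosolic ribosomal protein hosts had as many peaks in the mutant rescue as in the WT rescue. Of 24 such hosts, 16 had a WDR5 peak in each line and 14 in both, and 13 and 12 passed a −log10 q of 2. Of 11 hosts for translation or nucleolar factors, among which the symbol list also places the heat-shock chaperone Hspa8, 10 had a peak in the WT rescue against 5 in the mutant rescue, 6 and 3 at the higher threshold. Of 25 other protein-coding hosts, 13 and 6 had one, and 4 and 2 passed the higher threshold. In the mutant rescue that is 24.0%, with an interval of 9.36 to 45.1 that takes in the 14.0% of protein-coding genes with H3K4me3. In the WT rescue it is 52.0%, with an interval of 31.3 to 72.2 that lies above the 23.9% of those genes.

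Most peaks at the non-coding hosts of these snoRNAs were weaker. Snhg15 and Snhg17 are not in these classes, since they hold no snoRNA gene of the symbol rule. Their WDR5 folds were 10.0 and 14.0 in the WT rescue, and 9.09 and 8.86 in the mutant rescue. Of 12 Snhg or Gas5 hosts, 8 had a WDR5 peak in the WT rescue and 2, Snhg8 and Snhg9, in the mutant rescue. The mutant share of 16.7% has an interval of 2.09 to 48.4, which takes in the 6.44% found over 12727 lncRNA genes. The WT share of 66.7% has an interval of 34.9 to 90.1, which lies above the 5.72% of lncRNA genes. The 2 sets differ in H3K4me3: 91.7% of these hosts had a peak of the mark in each line, against 37.5% and 37.1% of lncRNA genes. Of 10 other non-coding hosts, 5 and 4 had a peak and none passed a −log10 q of 2. The Gas5 peak, in the WT rescue alone, had a fold of 2.96.

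**Figure D2:**
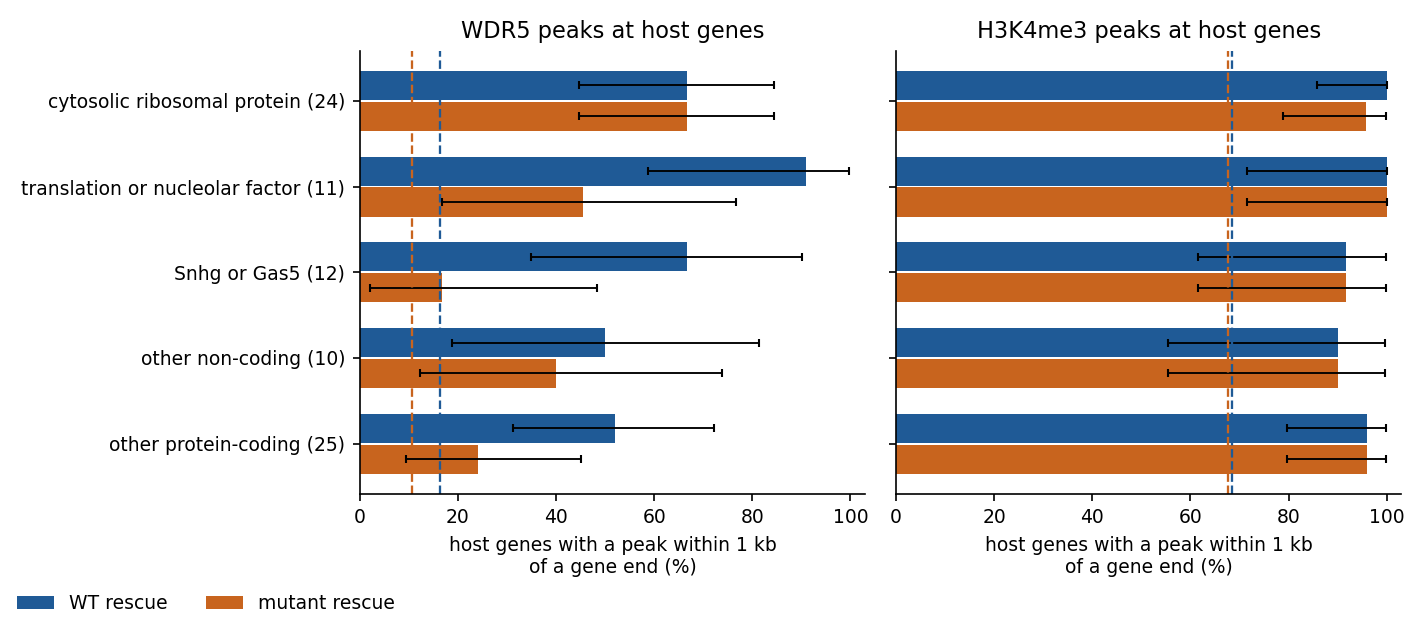
Share of host genes, in percent, with a WDR5 peak (left) or an H3K4me3 peak (right) within 1 kb of a gene end, by host class with the number of hosts in brackets. Bars are the 2 lines, error bars exact 95% binomial intervals and dashed lines the shares over all protein-coding genes. For WDR5 the ribosomal protein hosts reach 66.7% in both lines. The other classes are lower in the mutant rescue, as are all protein-coding genes (16.3% and 10.7%). Past a −log10 q of 2 the Snhg or Gas5 hosts were at 1 of 12 in each line and other non-coding hosts at 0 of 10.

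Eef2, the elongation factor that moves the ribosome along the messenger RNA and the host of Snord37, had a WDR5 peak of fold 17.1 in the WT rescue against 8.70 in the mutant rescue. Among the 10 hosts of highest WT rescue fold that had a peak in both lines were also the following ribosomal proteins. Rpl12, host of Snora65, had 13.4 in the WT rescue against 14.2 in the mutant rescue. Rpl13, host of Snord68, had 13.3 and 15.0, and Rps3, host of Snord15a and Snord15b, had 13.0 and 13.4. For Rpl32 with Snora7a the values were 12.3 and 13.4.

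The order of the hosts differed between the lists. Rpl39, host of Snora69, had 9.90 and 9.12, and Rack1, a ribosome-bound scaffold protein that hosts Snord95 and Snord96a, had 9.47 and 7.85. Rps3a1, host of Snord73a and Snord73b, had 9.07 and 10.1. Lower in the WT list, Sf3b3, a spliceosome subunit that hosts Snord111, had 6.45 in the WT list and 12.1 in the mutant list. Rpl5, host of Snord21, had 6.98 and 12.7, and Eif4g1, the cap-binding scaffold that hosts Snord66, had 5.19 and 11.7. Folds come from lists made separately and rank peaks only within a list, so a higher number in one of them is no measure of more binding.

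**Figure D3:**
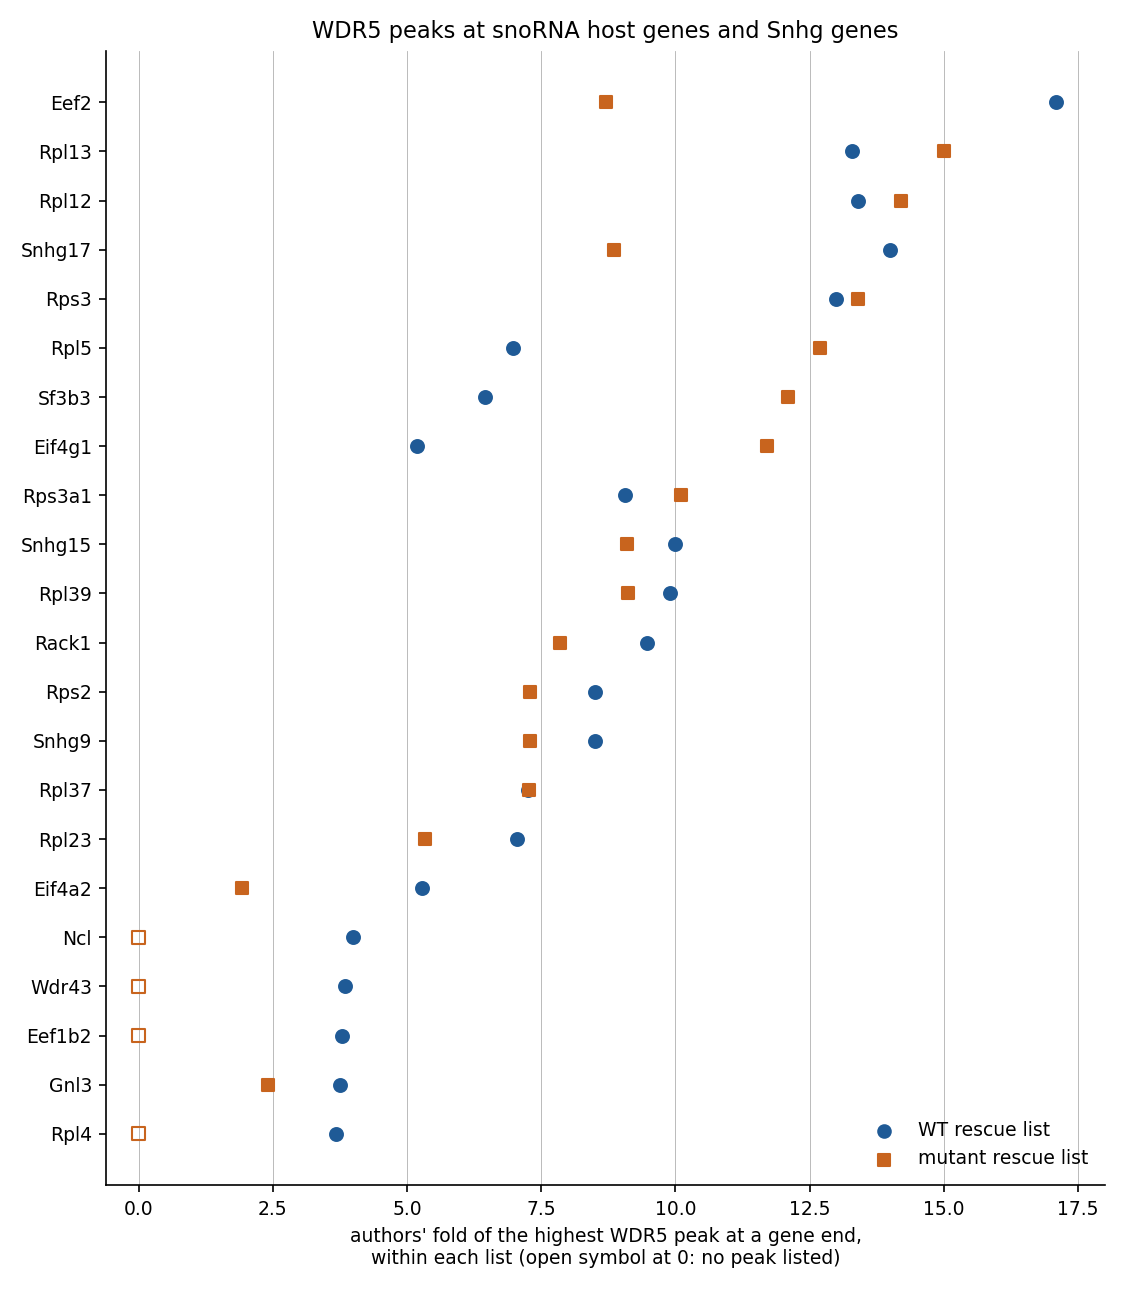
The authors' fold of the highest WDR5 peak at each host or Snhg gene that passed a −log10 q of 2 in either line, hosts limited to those with a start site in the promoter table; circles are the WT rescue list, squares the mutant rescue list, and an open symbol at 0 means that no peak was listed. Eef2 and Snhg17 stand higher in the WT list, and Sf3b3, Eif4g1 and Rpl5 higher in the mutant list.

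The promoters of 7 of these genes are given here because the strong WDR5 peaks of 6 of them reach into the window, with summits further downstream, and because Rpsa is a ribosomal protein host at which neither line had a WDR5 peak. Each runs 5′ to 3′ on the gene's own strand, with 250 bases before the RefSeq start site and 50 bases from it on, as given by RefSeq for GRCm38.p6, the assembly behind mm10. Capitals mark an E-box (CACGTG, the site bound by MYC and related factors) or the pyrimidine tract at the start that resembles a terminal oligopyrimidine (5′ TOP) motif, by which translation of many ribosomal protein messenger RNAs is regulated.
Eef2: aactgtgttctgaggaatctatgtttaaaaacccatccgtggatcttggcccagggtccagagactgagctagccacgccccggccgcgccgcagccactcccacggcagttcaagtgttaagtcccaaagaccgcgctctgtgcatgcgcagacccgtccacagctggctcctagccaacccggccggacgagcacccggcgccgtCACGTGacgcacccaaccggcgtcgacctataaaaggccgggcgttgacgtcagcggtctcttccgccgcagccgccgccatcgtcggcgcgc
Rpl12: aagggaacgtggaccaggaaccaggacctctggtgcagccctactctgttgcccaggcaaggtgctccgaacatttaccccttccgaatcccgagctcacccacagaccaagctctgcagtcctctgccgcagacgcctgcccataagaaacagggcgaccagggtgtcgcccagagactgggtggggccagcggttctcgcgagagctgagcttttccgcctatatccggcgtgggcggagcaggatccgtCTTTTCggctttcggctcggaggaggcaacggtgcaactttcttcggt
Rps3: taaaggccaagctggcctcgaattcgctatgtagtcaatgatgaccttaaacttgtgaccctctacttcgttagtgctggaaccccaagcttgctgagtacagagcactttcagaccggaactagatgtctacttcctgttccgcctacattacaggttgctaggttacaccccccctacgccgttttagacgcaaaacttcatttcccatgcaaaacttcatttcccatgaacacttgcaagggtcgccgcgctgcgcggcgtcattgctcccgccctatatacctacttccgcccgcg
Rack1: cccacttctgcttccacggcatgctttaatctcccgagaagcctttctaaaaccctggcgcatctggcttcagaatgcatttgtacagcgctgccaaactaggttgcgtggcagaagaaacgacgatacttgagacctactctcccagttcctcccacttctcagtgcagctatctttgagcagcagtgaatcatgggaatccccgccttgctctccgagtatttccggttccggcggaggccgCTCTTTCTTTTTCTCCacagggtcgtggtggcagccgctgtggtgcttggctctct
Snhg15: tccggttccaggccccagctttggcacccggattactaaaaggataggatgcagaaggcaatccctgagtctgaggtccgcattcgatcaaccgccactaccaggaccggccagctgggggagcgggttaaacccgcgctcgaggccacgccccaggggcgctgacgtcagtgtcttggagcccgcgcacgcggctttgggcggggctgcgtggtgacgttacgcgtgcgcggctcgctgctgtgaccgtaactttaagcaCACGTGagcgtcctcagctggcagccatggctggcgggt
Snhg17: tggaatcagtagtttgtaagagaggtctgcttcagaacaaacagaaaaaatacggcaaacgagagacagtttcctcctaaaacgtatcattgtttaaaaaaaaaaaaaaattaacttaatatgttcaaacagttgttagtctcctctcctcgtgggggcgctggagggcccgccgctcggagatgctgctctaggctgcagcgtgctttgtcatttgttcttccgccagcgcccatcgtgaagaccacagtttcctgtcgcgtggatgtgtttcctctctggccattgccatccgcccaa
Rpsa: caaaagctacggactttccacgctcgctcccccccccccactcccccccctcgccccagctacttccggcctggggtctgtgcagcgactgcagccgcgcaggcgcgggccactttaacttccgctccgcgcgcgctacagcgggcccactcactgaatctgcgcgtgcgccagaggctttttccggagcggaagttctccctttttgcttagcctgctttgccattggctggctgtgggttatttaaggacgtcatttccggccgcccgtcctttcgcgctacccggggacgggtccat
These windows are chr10:81176381-81176680 on the plus strand for Eef2, chr2:32961462-32961761 on the plus strand for Rpl12 and chr7:99483660-99483959 on the minus strand for Rps3. Rack1 is shown at chr11:48800110-48800409, plus strand, Snhg15 at chr11:6528711-6529010, minus strand, Snhg17 at chr2:158361460-158361759, minus strand, and Rpsa at chr9:120127516-120127815, plus strand.

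The WDR5 peak of Eef2 covered 266 of these 300 bases in the WT rescue and all 300 in the mutant rescue. At Rpl12 it covered 120 and 225 bases, and at Rps3 178 and 300. At Rack1, Snhg15 and Snhg17 it covered the whole window in both lines. The H3K4me3 peak left most of some of these windows free in the WT rescue: it covered 27 bases at Eef2, 5 at Rps3 and 31 at Snhg15, against 269, 194 and 143 in the mutant rescue. At Rpsa, host of Snora62 and itself a small-subunit protein, it covered 79 and 128 bases.

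Of the 82 hosts, 68 had a promoter entry, with 73 windows in all. The E-box CACGTG, which reads the same on both strands, was in 19.2% of the host windows and in 7.15% of all 32851 windows. CCGGAAG, an ETS factor site searched on both strands, was in 23.3% and 8.86%, and GGGCGG, a GC box searched on both strands, in 65.8% and 35.7%. TATAAA on either strand was in 23.3% and 13.6%, and AAGATGGC, a YY1 site on either strand, in 6.85% and 2.75%. CTTTCC on the gene's own strand was in 23.3% and 14.1%. A 5′ TOP-like tract, a C and at least 5 further pyrimidines within the 20 bases around the start, was in 32.9% and 15.1%. In the 26 windows of ribosomal, translation and nucleolar hosts it was in 26.9%. Tracts that lie outside those 20 bases are not counted, so these shares do not measure how many genes have a 5′ TOP motif.

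The motifs were also present where WDR5 was not listed. CACGTG was in 4 of the 14 windows of hosts with a −log10 q of at least 2 in both lines and in 4 of the 23 windows of hosts with no WDR5 peak. CCGGAAG was in 6 of 14 and 6 of 23, and the 5′ TOP-like tract in 6 of 14 and 8 of 23. No AAGATGGC was in either set. A match says only that the letters are there.

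Strong WDR5 summits sat just downstream of the start site. For peaks with a −log10 q of at least 2 at a host with a known start, the 19 WT rescue summits lay from −37 to 764 bp of it, with a median of 179 bp, and 14 of them were 100 to 310 bp downstream. All 13 mutant rescue summits were in that range, from 136 to 308 bp, with a median of 170 bp. The summits at Eef2 were at 186 and 210 bp, those at Rpl12 at 135 and 168 bp and those at Rps3 at 229 and 227 bp. Weaker peaks were spread more widely, from −1813 to 1931 bp over 36 WT rescue peaks and from −510 to 2874 bp over 13 mutant rescue peaks. They were also narrower, with median widths of 250 and 224 bp against 1079 and 1300 bp for the strong ones.

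Most strong peaks at host ends were overlapped by a peak of the other line. Of 23 WT rescue peaks with a −log10 q of at least 2 at host ends, 19 were overlapped by a mutant rescue peak, and of 17 such mutant rescue peaks all 17 were overlapped by a WT rescue peak, beside 52.3% and 70.5% of such peaks at the ends of protein-coding genes. Of all peaks at host ends, whatever their q, 26 of 66 and 25 of 37 were overlapped, beside 18.9% and 28.6%. The peaks counted for protein-coding genes include those of the hosts, and some peaks serve more than 1 gene.

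Of the 82 hosts, 24 had a WDR5 peak in the WT rescue only and 5 in the mutant rescue only, beside 12.0% and 6.38% of protein-coding genes. Over the protein-coding genes with an H3K4me3 peak in both lines these shares were 17.5% and 7.57%. Of the 24, only Ncl, Wdr43, Eef1b2 and Rpl4 passed a −log10 q of 2. Ncl, which codes for the nucleolar protein nucleolin and hosts Snora75 and Snord82, had a fold of 4.0 with a summit 764 bp downstream of the start. Wdr43, a factor of ribosome assembly with Snord53 and Snord92, had 3.85. Eef1b2, an elongation factor subunit with Snora41, had 3.79, and Rpl4, a large-subunit protein with Snord16a, had 3.68.

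The next hosts by fold in the WT rescue only had lower values. Snhg12, which holds 4 snoRNAs, had 3.31, and Ipo7, a nuclear import receptor with Snora23, had 3.14. Nop58, a core protein of box C/D particles that hosts Snord11 and Snord70, had 3.05, and Tpt1, the translationally controlled tumour protein with Snora31, also 3.05. Tcp1, a chaperonin subunit with Snora20, had 3.02, and Eif5, a translation initiation factor with Snora28, had 3.01. None of these 6 passed a −log10 q of 2. The 5 hosts with a peak in the mutant rescue only were 2410006H16Rik with 2.45, AI450353 with 2.42, Rps12 and Ptcd3 with 2.37 each and Rpl23a with 2.33, all with a −log10 q under 2.

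Several snoRNA genes appeared in 1 list only although their host had a strong peak in both. Snord73b in Rps3a1 and Snord96a in Rack1 were within 1 kb of the WT rescue peak alone, and Snord72 in Rpl37 of the mutant rescue peak alone. At Snord72 the mutant rescue peak spanned 1537 bp and the WT rescue peak 793 bp, with folds of 7.28 and 7.25. Unlike these, Snord2 and Snord43 lay in hosts whose peak was weak in 1 list. Snord2 in Eif4a2, the initiation factor helicase, had a WT rescue peak of fold 5.28 and −log10 q 9.81. The mutant rescue peak at Eif4a2 had a fold of 1.92 and a −log10 q of 0.0171. Snord43 in Rpl3 had a peak in both lists and went the other way. Its folds were 2.24 in the WT rescue against 4.51 in the mutant rescue, at a −log10 q of 0.0442 and 7.27.

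Snord58b lay inside a strong peak that did not count as a host end. The WDR5 peak in Rpl17 had a fold of 15.6 in the WT rescue against 10.1 in the mutant rescue, and its summits were 445 and 443 bp from Snord58b. The annotated gene end lay more than 1 kb away. Rpl17 had no entry in the promoter table, so no distance to its start site is given.

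Other snoRNA genes were covered by or close to their host's peak. Snord68 and Snora21 lay under the peaks of Rpl13 and Rpl23 in both lines, and so did Snord15a and Snora7a in Rps3 and Rpl32. Snora21 in Rpl23 had folds of 7.04 and 5.34. Snora64 in Rps2 and Snora78 in Snhg9 shared 1 peak, of fold 8.50 in the WT rescue against 7.29 in the mutant rescue. Its summit lay 197 and 219 bp downstream of the Rps2 start and 295 and 317 bp upstream of the Snhg9 start, so it is not a peak of Snhg9 alone. Snora65 in Rpl12 was within 1 kb of the peak but not under it.

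Among the Snhg genes, Snhg17 had the highest WDR5 fold, 14.0 in the WT rescue against 8.86 in the mutant rescue, with summits 87 and 83 bp downstream of its start. Snhg15 had 10.0 and 9.09, with summits at 144 and 130 bp. No snoRNA gene of the symbol rule lies in either of them. Snhg9 had the peak shared with Rps2. Snhg8 had weaker peaks of 3.44 and 2.36, and Snhg20 had 1.82 in each list.

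The peaks of the other Snhg genes were weak or not listed. In the WT rescue only, Snhg12 had a fold of 3.31, Snhg16 of 2.98, Snhg5 of 2.75, Snhg6 and Snhg4 of 2.41 each and Snhg3 of 1.92, all with a −log10 q under 2. Snhg1, Snhg7, Snhg7os, Snhg10, Snhg11, Snhg14 and Snhg18 had no WDR5 peak at a gene end in either line. Snhg7os and Snhg14 had no H3K4me3 peak at an end either. Snhg14 spans 1177441 bp, and inside it lay 5 WDR5 peaks in the WT rescue list against 14 in the mutant list, and 6 H3K4me3 peaks in each. The whole WDR5 lists differ in the same direction, with 11095 and 26888 peaks, so these counts do not show more binding in the mutant rescue.

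Ribosomal protein hosts without a WDR5 peak at an end in either line included Rpl10, Rpl17, Rpl27a, Rplp2 and Rpsa. These 5 had an H3K4me3 peak at an end in the WT rescue, with folds from 5.18 at Rpl17 to 6.41 at Rpsa. Nop53, a ribosome biogenesis factor that hosts Snord23, was the 1 translation or nucleolar host without a WDR5 peak. Rpl13a, with 4 snoRNAs, had 1 weak peak in the WT rescue with a fold of 1.92, and only Snord32a was within 1 kb of it.

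The proteins that build snoRNA particles were set beside the RNAs in a list of 26 genes. Of these, 16 had a WDR5 peak in the WT rescue, 4 in the mutant rescue and 2, Gar1 and Exosc10, in both, beside 23.9%, 14.0% and 6.45% of protein-coding genes with H3K4me3. All 4 core proteins of box C/D particles had one at a gene end in the WT rescue and none at an end in the mutant rescue. Both lists also held a peak inside Nop56, more than 1 kb from its ends, at Snord110. In the mutant rescue its fold was 2.43, so at Nop56 the contrast rests on the window. Snu13, which binds the RNA fold first, had a fold of 3.68, and Fbl, the methyltransferase fibrillarin, had 3.16. These 2 passed a −log10 q of 2. Nop58 had 3.05 and Nop56, which is itself a host, had 2.41.

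Of the 4 core proteins of box H/ACA particles, Gar1 had folds of 3.03 in the WT rescue against 3.04 in the mutant rescue. Nhp2 with 2.57 and Nop10 with 2.25 had a peak in the WT rescue only, and Dkc1, the pseudouridine synthase dyskerin, had none in either. Of 10 assembly factors, Nufip1 with 3.30, Naf1 with 2.79, Nolc1 with 2.73, Shq1 with 2.54 and Znhit6 with 2.47 had one in the WT rescue only, and Rpap3 with 3.19 in the mutant rescue only. The Cajal body genes Wrap53 and Coil had 2.48 and 1.92 in the WT rescue only. Among processing factors, the exosome nuclease Exosc10 had 3.46 and 2.47. Dbr1, the lariat debranching enzyme, had 2.71 in the WT rescue only, and Tent4b 2.21 in the mutant rescue only. No gene of the list passed a −log10 q of 2 in the mutant rescue, and Snu13 and Fbl passed it in the WT rescue, beside 2.47% and 3.47% of protein-coding genes with H3K4me3. With 26 genes, 0 is close to that background and shows nothing about the list. Of the 26, 25 had an H3K4me3 peak in each line.

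H3K4me3 peaks lay at 90 of the 134 snoRNA and Snhg genes in the WT rescue (67.2%, 58.5 to 75.0) and at 85 in the mutant rescue (63.4%, 54.7 to 71.6), all 85 in both, beside 44.8%, 44.2% and 42.3% of all genes for WT, mutant and both. Of the hosts, 79 and 78 of 82 had one, beside 68.4% and 67.6% of protein-coding genes. The 3 hosts without a peak within 1 kb of an annotated gene end in either line were Snhg14, Gm26590 and Rc3h2. At Rc3h2 the promoter table's start site lies inside the annotated gene, and the H3K4me3 peak there had folds of 14.4 and 15.9. The members with the highest WT rescue fold were Snord104 with 13.4 and 14.1 in the mutant rescue, Snord13 with 10.1 and 9.75, Snhg11 with 9.29 and 8.80, Snora26 with 7.77 and 10.2, and Snord1b with 7.49 and 8.64. The last is a tie, since Snord1a, Snord1b, Snord1c and their host Snhg16 share that WT rescue peak.

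The marks at the hosts were wide and of moderate fold. The highest H3K4me3 peak per host had a median width of 2353 bp in the WT rescue against 2103 bp in the mutant rescue, and over protein-coding genes it was 1483 and 1431 bp. Its median fold was 5.62 and 7.63, beside 10.2 and 10.3 over protein-coding genes.

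At the start sites of hosts and Snhg genes the mutant rescue peaks ended earlier. Over 73 hosts and Snhg genes with a start site and an H3K4me3 peak there in both lines, the downstream edge had a median of 1993 bp in the WT rescue against 1600 bp in the mutant rescue, and it was nearer the start in the mutant rescue at 67 of 73. The median difference was −301 bp. Over 11515 protein-coding genes the medians were 982 and 939 bp, the median difference was −43 bp and the mutant edge was nearer at 71.0%.

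The 26 hosts for ribosomal proteins and translation or nucleolar factors had the largest median difference among the host classes. Their downstream edge had a median of 2356 bp in the WT rescue against 1740 bp in the mutant rescue, was nearer the start in the mutant rescue at 26 of 26, and differed by a median of −522 bp. At Eef2 the edges were 2274 and 1572 bp, at Rps3 2392 and 1843 bp and at Nop56 2706 and 1682 bp. The listed fold was higher in the mutant list at all 26, with medians of 5.25 and 7.39, beside 58.2% of protein-coding genes. The upstream edge of the highest-fold peak had medians of −26 and −388 bp, with a median difference of −64 bp. It lay further upstream in the mutant rescue at 18 of 26, beside 36.8% of protein-coding genes, and less far at 7. The WT list held 2 peaks at the gene ends and the mutant list 1 at Rps2, Rpl37 and Rps12. Their upstream edges were 76 and −1017, 59 and −747, and 17 and −888 bp. Peaks were joined for the downstream edge only, so the part of split peaks in the upstream edge was not tested. For the downstream edge, other protein-coding hosts showed 22 of 24 with a nearer edge and a median difference of −198 bp. Snhg, Gas5 and other non-coding genes showed 19 of 23 and −150 bp.

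Neither the shorter downstream reach nor the higher fold was particular to hosts. Over 48 cytosolic ribosomal protein genes that host none of the snoRNAs, the edge medians were 2154 and 1506 bp, with a nearer mutant edge at 46 of 48 and a median difference of −508 bp. The fold was higher in the mutant list at 45 of these 48, and the upstream edge further upstream at 31. Over 1716 other protein-coding genes with a mean peak width of 2000 to 3000 bp, the median difference was −79 bp, with 80.8% nearer, and 83.6% had the higher fold in the mutant list. Read depth, which the peak lists do not give, can move peak edges and folds, and its part was not tested.

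**Figure D4:**
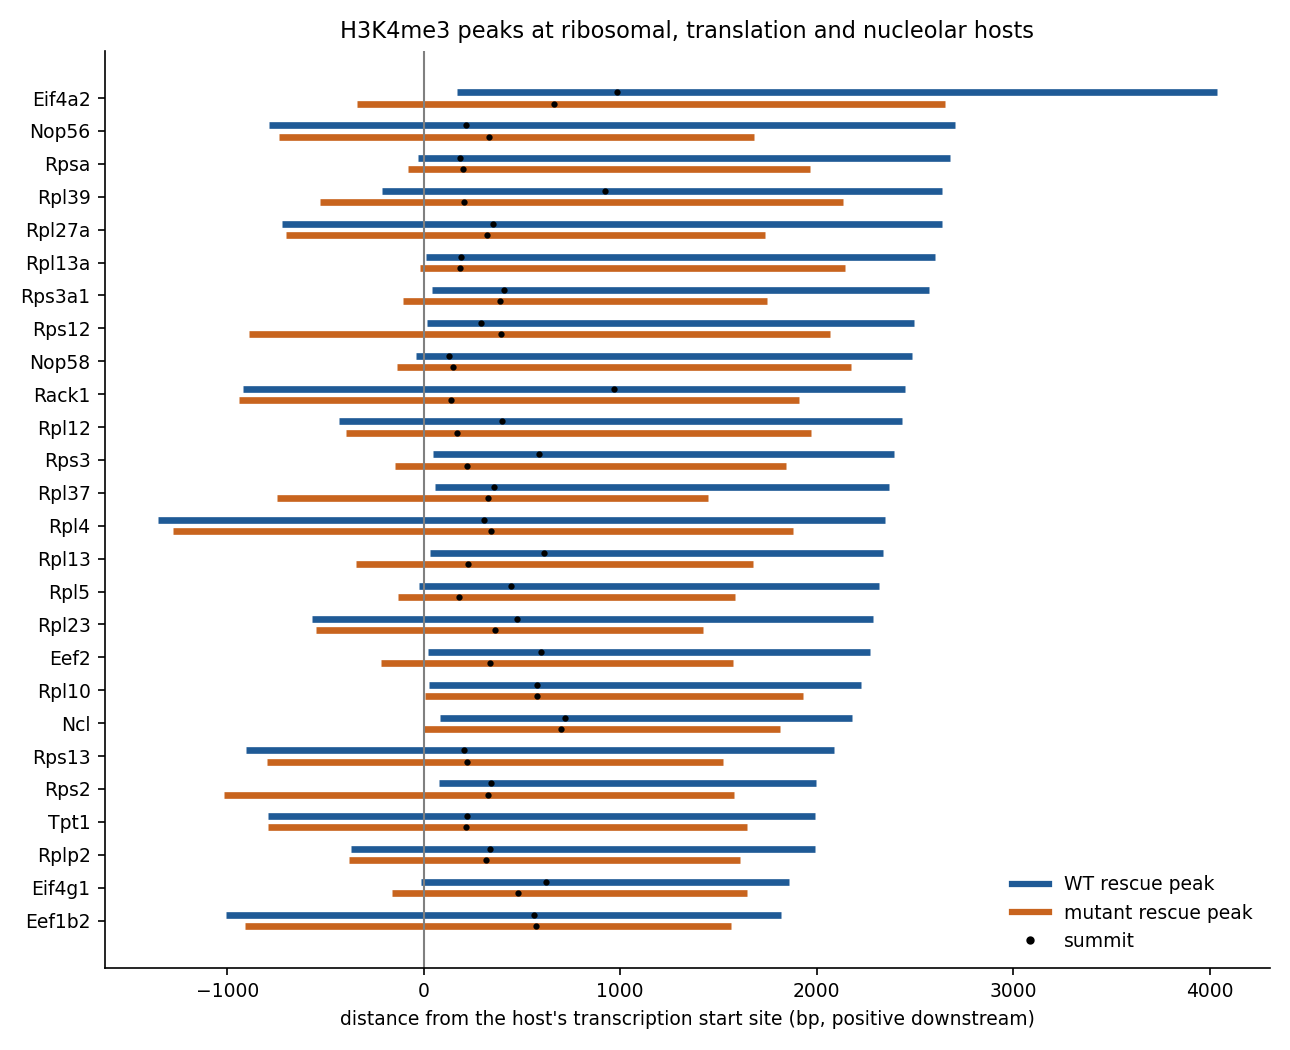
Extent of the H3K4me3 peak at the start sites of the 26 ribosomal, translation and nucleolar hosts, in bp from the start (downstream positive), with the upper bar of each pair for the WT rescue, the lower for the mutant rescue and a dot for the summit. At all 26 hosts the mutant rescue bar ends nearer the start site.

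The 5 snoRNA genes with an H3K4me3 peak within 1 kb in the WT rescue alone mostly lay near such edges. They stand beside 2.43% of all genes with a peak in the WT rescue only. Of them, 4 were Snord1a in Snhg16, Snora31 in Tpt1, Snord57 in Nop56 and Snord82 in Ncl, whose host peaks were present in both lines. Their WT rescue peaks ended 880, 674, 908 and 949 bp from the snoRNA gene. The fifth, Snord118, had a WT rescue peak of fold 1.98 with no overlapping mutant rescue peak. Rpl17 was the host listed in the WT rescue only, beside 1.84% of protein-coding genes, and its peak there was overlapped by a mutant rescue peak of fold 10.2 that lay more than 1 kb from the gene end.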

How the data were processed

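WDR5 and H3K4me3 ChIP-seq peaks of 2 rescue lines were used, 4 lists with 1 library each, and the inputs of both lines were left out. Per the labels' protocols, cells were crosslinked for 10 minutes in 1% PFA. Per the submitters' processing notes, the mm10 lists came from MACS2 2.1.2, with BWA 0.7.17-r1188, Picard and SAMtools also named; settings and controls are not given in the sources used here. The deposited lists give each peak's position, a fold (a ratio at the summit), a −log10 p and a −log10 q as the authors' caller wrote them; the smallest deposited −log10 p was 2.00, and the deposited score was not used. No list held overlapping peaks, and depth is unknown.

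Genes came from a RefSeq table without strand; start sites and strand came from the promoter table, which had 68 of 82 hosts and 16 of 18 Snhg genes. The host was the shortest annotated gene, not itself a small RNA, that contains the whole snoRNA gene; 9 snoRNA genes lay in more than 1. The same-strand condition planned for hosts could not be used, and the planned search for box C inside snoRNAs was not run. Peaks at a gene lay within 1 kb of either end; overlap meant at least 1 bp. Host classes follow symbols, so Eif3a, Eif5, Gnl3, Tsr1 and Wdr43 fell under other protein-coding and the chaperone Hspa8 under translation or nucleolar factors. The H3K4me3 edges are those of the peak of highest fold within 1 kb of a start site, and this measure was added after the lists had been looked at.

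No test was made, since nothing is replicated. Shares have exact Clopper-Pearson 95% intervals. Genes named are all Snhg genes and particle-protein genes with a WDR5 peak, snoRNA genes with a WDR5 −log10 q of at least 2, the 10 hosts of highest WDR5 fold with a peak in both lines (ranked by the WT rescue fold), in the WT rescue only and in the mutant rescue only (5 existed), members or hosts with H3K4me3 in 1 line, and the 5 members of highest H3K4me3 fold; others were picked after their values were seen. Some genes that this rule takes are not reported here. The members and lists were chosen with earlier results of these data known. Tested on simulated data, the window code found 200 of 200 planted genes and differed from a direct search at 0 of 3000; the edge code recovered 200 of 200. The scripts ran under Python 3.11.15 with pandas 2.3.3, scipy 1.17.1, numpy 2.4.6 and, for plots, matplotlib 3.10.9.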

Additional observations from a re-analysis of the deposited data

How the results depend on the processing

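Of 153 recomputed values, 114 were within 1.5 times the reported one and 39 were not; the counts below are for the WT rescue, the mutant rescue and both. With a −log10 q of at least 2, WDR5 counts were 17, 15 and 13 snoRNA and Snhg genes, 24, 18 and 17 hosts, 2, 0 and 0 particle-protein genes, and 13 and 11 snoRNA genes with a peak at the host's end. With a −log10 p of at least 5 they were 23, 15 and 13, then 31, 19 and 17, then 5, 2 and 0, then 17 and 11. These drops follow from fewer peaks. With lists of equal length, 2 particle-protein genes in the mutant rescue and 1 in both were left, again from fewer peaks. A window of 2.5 kb gave 70, 43 and 36 snoRNA and Snhg genes, 7 particle-protein genes in the mutant rescue and 4 in both, and 56 and 37 snoRNA genes at the host's end. A window of 0.2 kb gave 27, 16 and 13, then 8, 2 and 1, then 11 and 8. Window size sets both changes.

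Counting each peak once, taking every containing gene as host, including the Snord115 and Snord116 copies, a reciprocal overlap of 50%, and leaving out peaks near transfer RNA genes or narrow peaks of high fold kept every count within 1.5 times. Joining all H3K4me3 peaks within 1 kb of a start site, an alternative chosen after seeing the data, gave a nearer mutant edge at 69 of 73 hosts and Snhg genes and at 26 of 26 ribosomal, translation and nucleolar hosts. No paired analysis was possible because each antibody and line has 1 library. Leaving out a library leaves no comparison. Differences between lines cannot be told apart from differences between libraries.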
